A study of Trichosurus vulpecula with 6 samples.

Results

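The genes described here encode the nuclear subunits of the mitochondrial respiratory chain and ATP synthase, measured in ear skin of the common brushtail possum. They were chosen by symbol: NDUFA, NDUFB, NDUFC, NDUFS and NDUFV genes, SDHA to SDHD, UQCR and CYC1 genes, COX4 to COX8 genes and ATP5 genes. Of 17505 named genes with assembled transcripts, 74 matched. They comprised 35 genes of complex I, 4 of complex II, 4 of complex III, 14 of complex IV and 17 of complex V, with NDUFA4 and NDUFA4L2 placed in complex IV. RNA came from ear punch skin of 6 adult female possums killed in pest control around Dunedin, 3 with grey fur and 3 with black fur, which had received no experimental treatment. Poly(A)-enriched, strand-specific libraries were sequenced as 120 bp single-end reads, and the authors assembled the transcripts of each library separately. The 6 libraries are named here by coat colour and the replicate number of their labels, 1 possum to a library.

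Oxidative phosphorylation passes electrons from NADH (complex I) or succinate (complex II) through complex III and cytochrome c to oxygen at complex IV, and the proton gradient made on the way drives ATP synthase, complex V. Most subunits are encoded in the nucleus and imported, while a small core set is encoded by the mitochondrial genome. Several complex IV subunits exist as a common form and a form of heart and skeletal muscle, testis or oxygen-poor tissue, so that their ratio reports on the cells in a sample. In skin, mitochondria serve the epidermis, hair follicles, glands, vessels and any muscle that a punch includes.

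Levels are given in TPM, a measure of abundance that allows for transcript length and depth, summed over the transcripts of a gene. For 63 members a spliced gene was found, 56 under their RefSeq symbol and 7 (COX6A1, COX6A2, COX6B1, COX6B2, COX6C, COX7A2 and UQCR10) under a RefSeq gene without a symbol that the files named. For the other 11 members (COX4I1, COX5AB, COX5B, COX7B, COX7C, COX8A, NDUFC2, UQCR-14L, UQCRH, UQCRQ and ATP5ME) the value is that of loci with a single exon, and a spliced gene was not analysed here. COX4I2, COX7A1, COX7A2L, COX7B2, COX8B, COX8C and CYC1 were not found by symbol and were not analysed here. The spliced members were small genes, with a median span of 7513 nt and 4 exons against 30390 nt and 8 exons over 13466 spliced protein-coding genes. Their most covered transcript had a median length of 641 nt, against 2662 nt over those genes. They lay on 10 chromosomes, with 16 on chromosome 1, 13 on chromosome 2 and 1, NDUFA1, on chromosome X. In 4 pairs the members lay within 1 Mb of each other. On chromosome 6 of the assembly mTriVul1.pri, NDUFV1 (277473074 to 277477043) lay 183.5 kb from NDUFS8 (277660573 to 277664068).

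Aligned bases ranged from 4.17 gigabases (grey replicate 1) to 10.2 gigabases (grey replicate 3). Fibroblast transcripts such as DCN and LUM and the 5 melanocyte markers were assembled in every library. The keratins and DSP chosen as keratinocyte markers were not found by symbol, and that check was void. Black replicate 1 stood apart. The 12 skeletal muscle markers found, of 16 listed, summed to 5201 TPM there, against 82.6 to 92.7 TPM in the grey libraries and to 81.7 and 139 TPM in black replicates 2 and 3. Outside black replicate 1 most of each sum was a single gene, MB, at 70.5 to 123 TPM. All 12 had their highest value in black replicate 1. CKM and TTN, which encode muscle creatine kinase and titin, were listed at 0 in the other 5 libraries. The main sums, counts and changes below are also given without it.

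The members together took 1.11%, 1.23% and 1.12% of TPM in the grey libraries and 1.38%, 1.23% and 1.26% in the black libraries. In grey skin they summed to 11099, 12332 and 11217 TPM, and in black skin to 13792, 12324 and 12580 TPM. Grey replicate 2 lay above black replicate 2, so the colours overlapped. Grey skin averaged 11549 ± 680 TPM and black skin 12898 ± 784 TPM (SD over 3 libraries each), which differ by 1349 TPM. Without black replicate 1 the difference was 902.5 TPM. Complex I contributed 3745 to 4617 TPM per library, complex V 4270 to 5377, complex IV 2200 to 2806, complex III 449 to 687 and complex II 325 to 420. These shares depend on which subunits were found, since complex III was represented by 1 spliced gene and 3 genes with single-exon loci only. Of these, UQCR-14L had 2.39 and 2.44 TPM in black replicates 2 and 3, against 91.9 to 128 TPM in the other libraries. The complex III sum differed by 1.6 TPM between the colours (black minus grey), and by −77.0 TPM without black replicate 1.

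**Figure D1:**
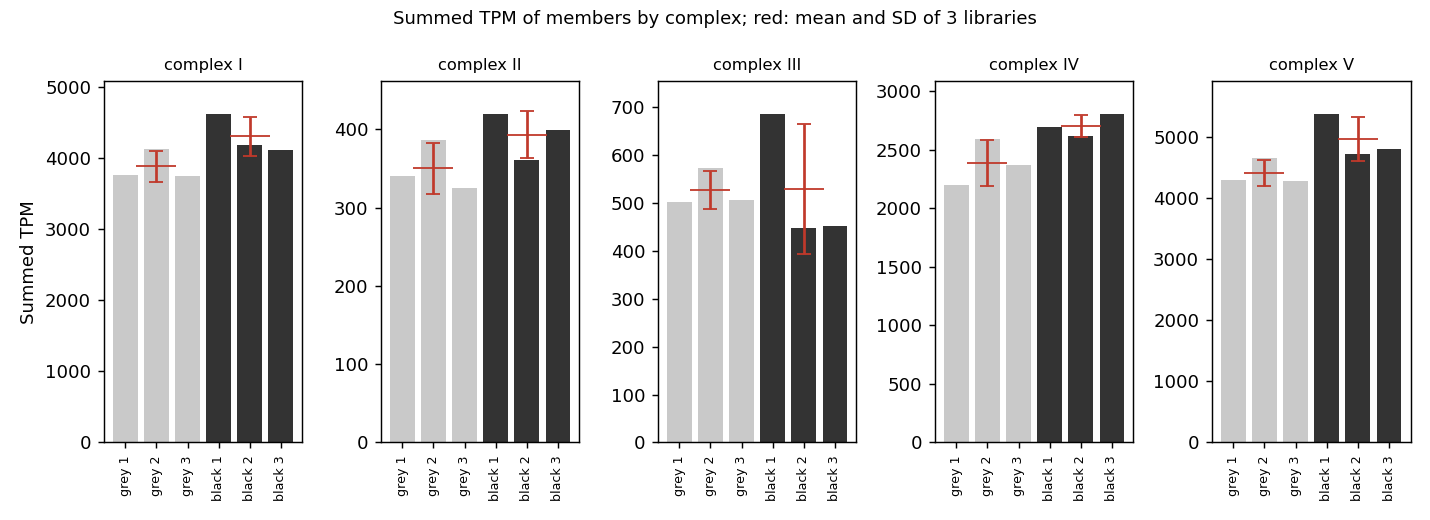
Summed TPM of the members of each complex in each library, grey libraries in light and black libraries in dark bars, with the mean and SD of each colour (n = 3) in red; vertical scales differ between panels and start at 0. Black replicate 1 is highest in complexes I, II, III and V, and in complex IV black replicate 3 is highest at 2806 TPM.

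The first question was whether any subunit gene differed between black and grey skin. Of the 74 members, 71 averaged 1 TPM or more and were tested; COX5B, COX7C and COX8A were not. In a limma fit on log2(TPM + 1) across 14969 genes, 0 of the 71 members passed an adjusted p of 0.05 and their smallest adjusted p was 1.00. Over all genes tested, 2 passed (0.0134%). No member had an unadjusted p under 0.05, compared with 338 of all genes tested (2.26%). With 3 possums of each colour, the 95% intervals of the change were wide: that of SDHB, among the narrower ones, ran from −0.16 to 0.48 on the log2 scale. Changes of this size may go undetected with this number of possums, and so may larger ones. The 0.75 of NDUFC1 did not pass, but the assembled length of that gene differed between libraries, as described below.

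Although no member passed the test, most members had a slightly higher mean in black skin. The mean of log2 values was higher in black for 62 of 71 members, compared with 56.6% of all genes tested and 69.1% of the 2528 genes that averaged 50 TPM or more. The median log2 change (black minus grey) was 0.15 over the members and 0.04 over all genes tested. Over the genes averaging 50 TPM or more it was 0.08. With quantile-normalized values the median was 0.09 over the members and −0.002 over all genes tested. By complex, in the main fit, the median was 0.15 for I, 0.17 for II, 0.19 for III, 0.11 for IV and 0.19 for V. These medians rest on few genes and single libraries moved them. That of complex III was 0.06 without grey replicate 3 and 0.10 without black replicate 1. That of complex IV was 0.02 without grey replicate 1, below the 0.03 of all genes in that fit, and 0.07 without black replicate 3. That of complex II was 0.26 without grey replicate 2, and that of complex V was 0.13 without black replicate 1. Without black replicate 1, 56 of 71 members were higher in black against 53.2% of genes, and the median change was 0.13. Within a bulk sample, fewer cells of a type and less RNA per cell cannot be told apart.

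The slight shift followed single libraries as well as colour. Black replicate 1 held the highest value of 39 of 71 members, against 21.7% of all genes tested. Grey replicate 3 held the lowest value of 29 of 71, against 23.8%. Relative to each gene's own mean over the 6 libraries, the median member stood at −0.13, 0.06 and −0.13 on the log2 scale in the grey libraries and at 0.19, 0.01 and 0.06 in the black libraries. Grey replicate 2 thus lay with black replicates 2 and 3. The same medians over all genes tested were between −0.05 and 0.04. The muscle transcripts of black replicate 1 moved with its high values, and their part in the shift was not tested.

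For 10 of 71 members all 3 black libraries lay above all 3 grey libraries, and for 0 all lay below. Over all genes tested these shares were 3.87% and 2.24%, and the share of higher ones was 6.72% among genes of at least 50 TPM. The 10 were NDUFA3, NDUFA6, NDUFA8, NDUFB2 and NDUFB10 of complex I, SDHB, UQCRH, COX4I1, COX6C and ATP5MG, with UQCRH and COX4I1 measured at single-exon loci. Without black replicate 1, 14 members lay apart in this way against 7.83% of genes. With coverage taken over the same exons in every library, NDUFA3, NDUFB10 and UQCRH were no longer among them and the count was 7, against 3.37% of genes.

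**Figure D2:**
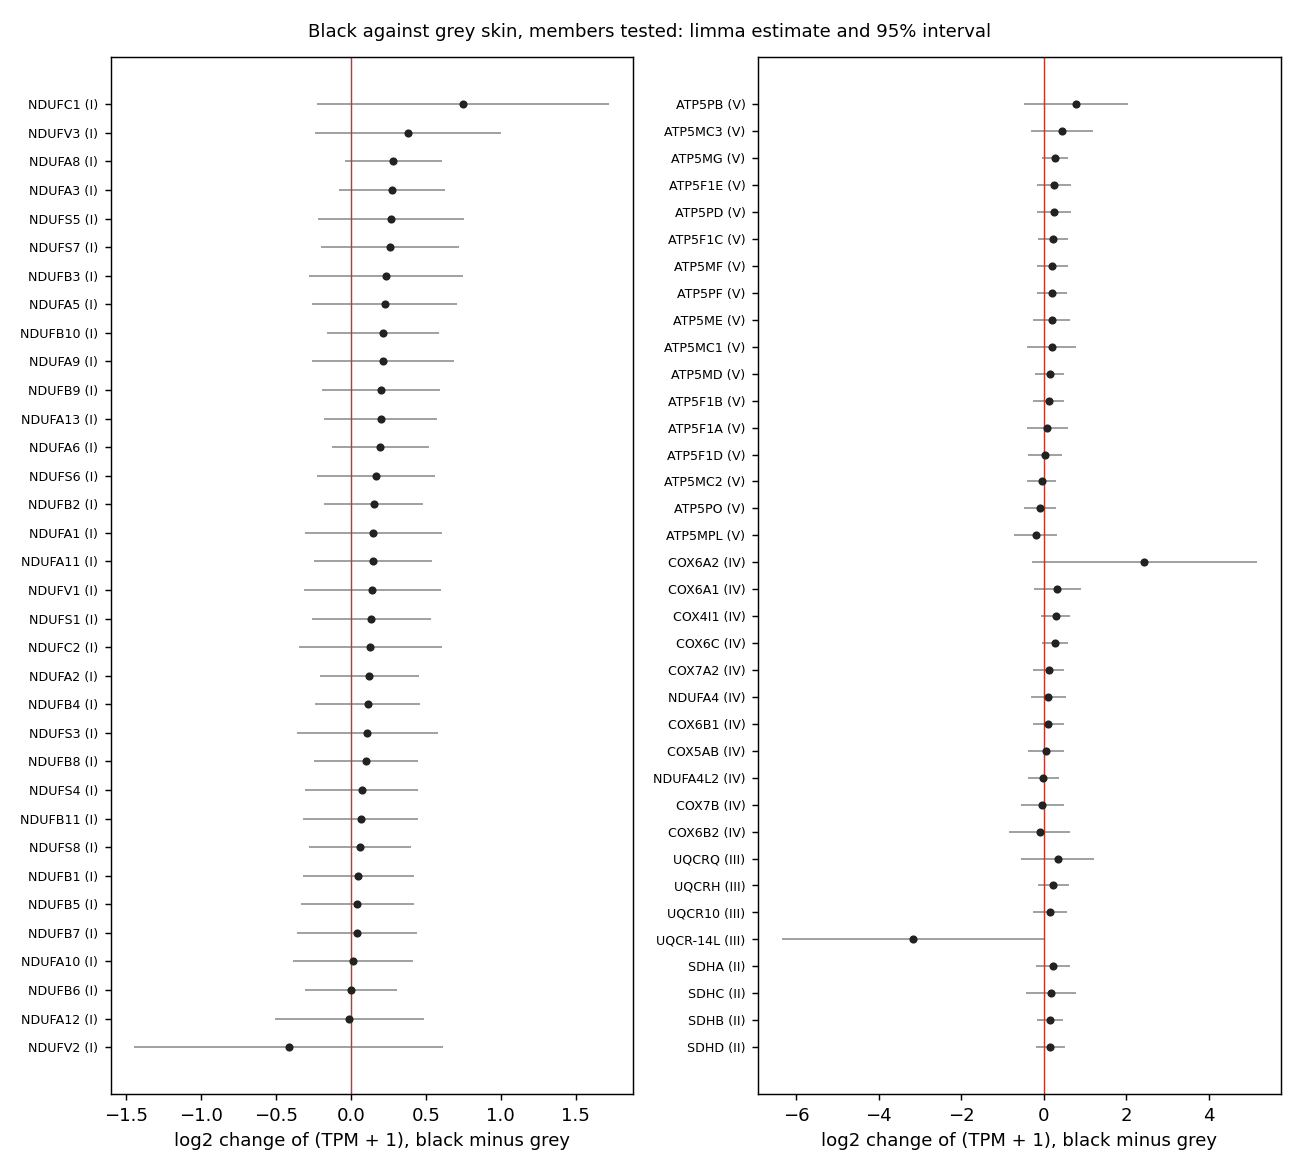
Change of log2(TPM + 1), black minus grey, for 70 of the 71 members tested, with limma's 95% interval, complex I at left and complexes II to V at right on a wider scale. The interval of every member shown includes 0; COX6A2 and UQCR-14L have the widest intervals and the change of UQCR-14L is the lowest at −3.17.

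Complex I oxidises NADH and has a catalytic core, whose nuclear part is encoded by some of the NDUFS and NDUFV genes, surrounded by accessory subunits. NDUFV1, which binds NADH, ranged from 51.0 to 77.9 TPM over the libraries, and NDUFS1, the largest iron-sulfur subunit, from 64.9 to 87.2 TPM. NDUFS7 and NDUFS8, which carry iron-sulfur clusters on the path to quinone, ranged from 55.1 to 95.8 and from 79.7 to 95.4 TPM.

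Among accessory subunits NDUFA13, also known as GRIM19, had the highest mean of the complex, with 296, 354 and 264 TPM in grey and 355, 347 and 341 TPM in black libraries. The lowest spliced one was NDUFB5, at 16.1 to 19.6 TPM. NDUFC2, the lowest of all, was measured only at a single-exon locus, at 5.04 to 6.94 TPM. NDUFA8 had 112, 121 and 106 TPM in grey and 137, 133 and 143 TPM in black skin. These groups did not overlap, and the change was 0.28 ± 0.14 (SE; limma, unadjusted p = 0.0755, adjusted p = 1.00). NDUFA3 had 150, 138 and 121 TPM in grey and 170, 170 and 154 TPM in black skin, NDUFA6 66.3 to 75.8 against 80.5 to 85.0 TPM. For NDUFB10 (214, 191 and 206 against 276, 224 and 214 TPM) and NDUFB2 (69.8, 66.1 and 73.6 against 83.9, 75.2 and 74.4 TPM), the lowest black library was just above the highest grey one. NDUFV3, a small accessory subunit of the NADH-binding module, varied between possums of one colour, from 44.5 to 70.5 TPM in grey and from 57.5 to 93.1 TPM in black skin.

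Complex II is succinate dehydrogenase, shared with the tricarboxylic acid cycle. SDHA, the flavoprotein that oxidises succinate, had 56.5, 70.2 and 53.1 TPM in grey and 78.8, 61.5 and 69.2 TPM in black libraries, and these overlapped. SDHB, the iron-sulfur subunit, had 102, 109 and 105 TPM in grey and 122, 111 and 120 TPM in black libraries. Its colours did not overlap, with a change of 0.16 ± 0.13 (SE; limma, unadjusted p = 0.266, adjusted p = 1.00). The membrane anchors differed in their spread. SDHD stayed between 109 and 141 TPM, while SDHC ran from 49.4 TPM (grey replicate 3) to 98.4 TPM (grey replicate 2).

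Complex III passes electrons from quinol to cytochrome c. Its spliced member UQCR10, a small subunit, had 199, 189 and 243 TPM in grey and 267, 221 and 212 TPM in black libraries, which overlapped. The single-exon locus named UQCRH, after the hinge subunit, had 132, 128 and 105 TPM in grey and 157, 136 and 135 TPM in black libraries. That named UQCRQ ranged from 52.0 to 147 TPM, both extremes among grey libraries.

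Complex IV, cytochrome c oxidase, reduces oxygen. COX6B1, a subunit on the intermembrane side, had the highest mean of the complex, between 532 and 694 TPM. COX6C had 266, 275 and 248 TPM in grey and 323, 310 and 314 TPM in black libraries. The groups stood apart, and the change was 0.26 ± 0.13 (SE; limma, unadjusted p = 0.0859, adjusted p = 1.00). COX7A2, the common form of subunit 7A, ranged from 330 to 436 TPM. The single-exon locus named COX4I1 had 98.5, 110 and 93.5 TPM in grey and 134, 117 and 118 TPM in black libraries, and the loci named COX7B summed to 25.0 to 39.9 TPM. Loci named COX5B, COX7C and COX8A reached at most 0.68, 4.55 and 0.66 TPM and were listed at 0 in 2, 5 and 5 libraries. Those values say nothing about the level of the spliced genes.

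The muscle form of subunit 6A was high in 1 library. COX6A2 (LOC118828737), the heart and skeletal muscle form, lies on the reverse strand of chromosome 1 at 548107730 to 548108698 and has 3 exons. It had 3.89, 3.60 and 1.42 TPM in grey and 140, 3.72 and 11.9 TPM in black libraries. These values rested on coverage worth 31.5, 54.5 and 34.0 reads in grey and 1931, 47.1 and 120 reads in black libraries. Black replicate 1 was far above all others, and black replicate 3 was above the grey range. COX6A1, the common form, had 320, 387 and 236 TPM in grey and 310, 415 and 449 TPM in black libraries. COX6A2 made up 31.1% of both forms in black replicate 1, 2.58% in black replicate 3 and 0.60% to 1.20% in the other 4. Its change was 2.43 ± 1.15 (SE; limma, unadjusted p = 0.0723, adjusted p = 1.00), and an exact 2-sided permutation test on TPM gave p = 0.20, where 0.10 is the smallest p that 3 against 3 can give. Without black replicate 1 the change was 1.04. Skeletal muscle markers moved with it: ACTA1, muscle actin, had 844 TPM in black replicate 1 and 0.38 to 2.2 TPM elsewhere, and MYL1, a myosin light chain, had 1262 TPM against 1.26 to 2.56 TPM. Black replicate 3 was second to black replicate 1 for 6 of the 12 markers (ACTA1, MYLPF, TNNT3, TNNI2, MB and ACTN3). Of these only MB, myoglobin, was at a high level there, at 123 TPM. The rest had 0.77 to 2.24 TPM, near the floor, and some were barely above a grey library, such as MYLPF at 2.24 against 2.11 TPM in grey replicate 2. Of the other 6 markers, MYL1, NEB and DES lay within the range of the grey libraries or just below it in black replicate 3, and CKM, TTN and TNNC2 were listed at 0. The part of these cells in the summed level of the members was not tested.

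**Figure D3:**
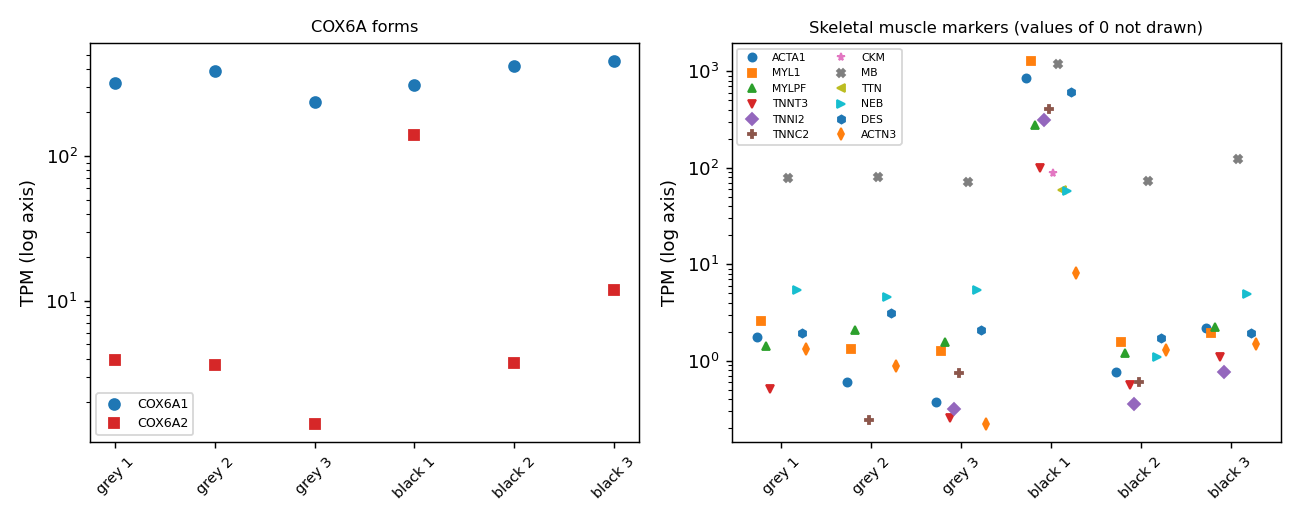
TPM on a log axis by library for the common (COX6A1) and muscle (COX6A2) form of subunit 6A, at left, and for 12 skeletal muscle markers, at right, where values of 0 are not drawn. COX6A1 stays between 236 and 449 TPM, while COX6A2 and all markers are highest in black replicate 1.

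The other tissue forms did not follow black replicate 1. NDUFA4L2, a form of NDUFA4 that is induced by low oxygen and is known from pericytes, had 162, 209 and 167 TPM in grey and 174, 170 and 186 TPM in black libraries. NDUFA4, now counted as a complex IV subunit, had 429, 551 and 499 TPM in grey and 589, 442 and 572 TPM in black libraries. NDUFA4L2 therefore made up 22.8% to 27.8% of the pair, lowest in black replicate 1. Its change was −0.01 ± 0.16 (SE), with a 95% interval of −0.39 to 0.36. COX6B2, known as the testis form of subunit 6B, was low, from 2.12 to 4.47 TPM, or 0.31% to 0.71% of both 6B forms.

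Complex V makes ATP as its rotor turns. ATP5MG, a membrane subunit near the peripheral stalk, had the highest mean of all members, with 697, 693 and 699 TPM in grey and 879, 827 and 806 TPM in black libraries. The grey libraries were close together and all below the black ones, and the change was 0.27 ± 0.13 (SE; limma, unadjusted p = 0.0902, adjusted p = 1.00). Of its TPM, 2 single-exon copies took 58.6 to 79.5 TPM each. The catalytic head subunits ATP5F1A and ATP5F1B ranged from 323 to 515 and from 318 to 408 TPM, the central stalk subunits ATP5F1C and ATP5F1D from 164 to 226 and from 70.9 to 97.9 TPM. ATP5F1D had the lowest mean of the complex. ATP5PO, which joins head and peripheral stalk, had 313, 332 and 352 TPM in grey and 348, 327 and 261 TPM in black libraries, with a change of −0.10 ± 0.16 (SE). ATP5MPL, a small membrane subunit, had the lowest change of the complex, −0.20 ± 0.22 (SE), at 138, 215 and 201 against 187, 136 and 157 TPM. The 3 genes of the rotor's c subunit, which encode the same mature protein behind different import sequences, differed: ATP5MC2 stayed between 261 and 315 TPM. ATP5MC1 had 165, 173 and 177 TPM in grey and 288, 157 and 166 TPM in black libraries, so only black replicate 1 was high.

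**Figure D4:**
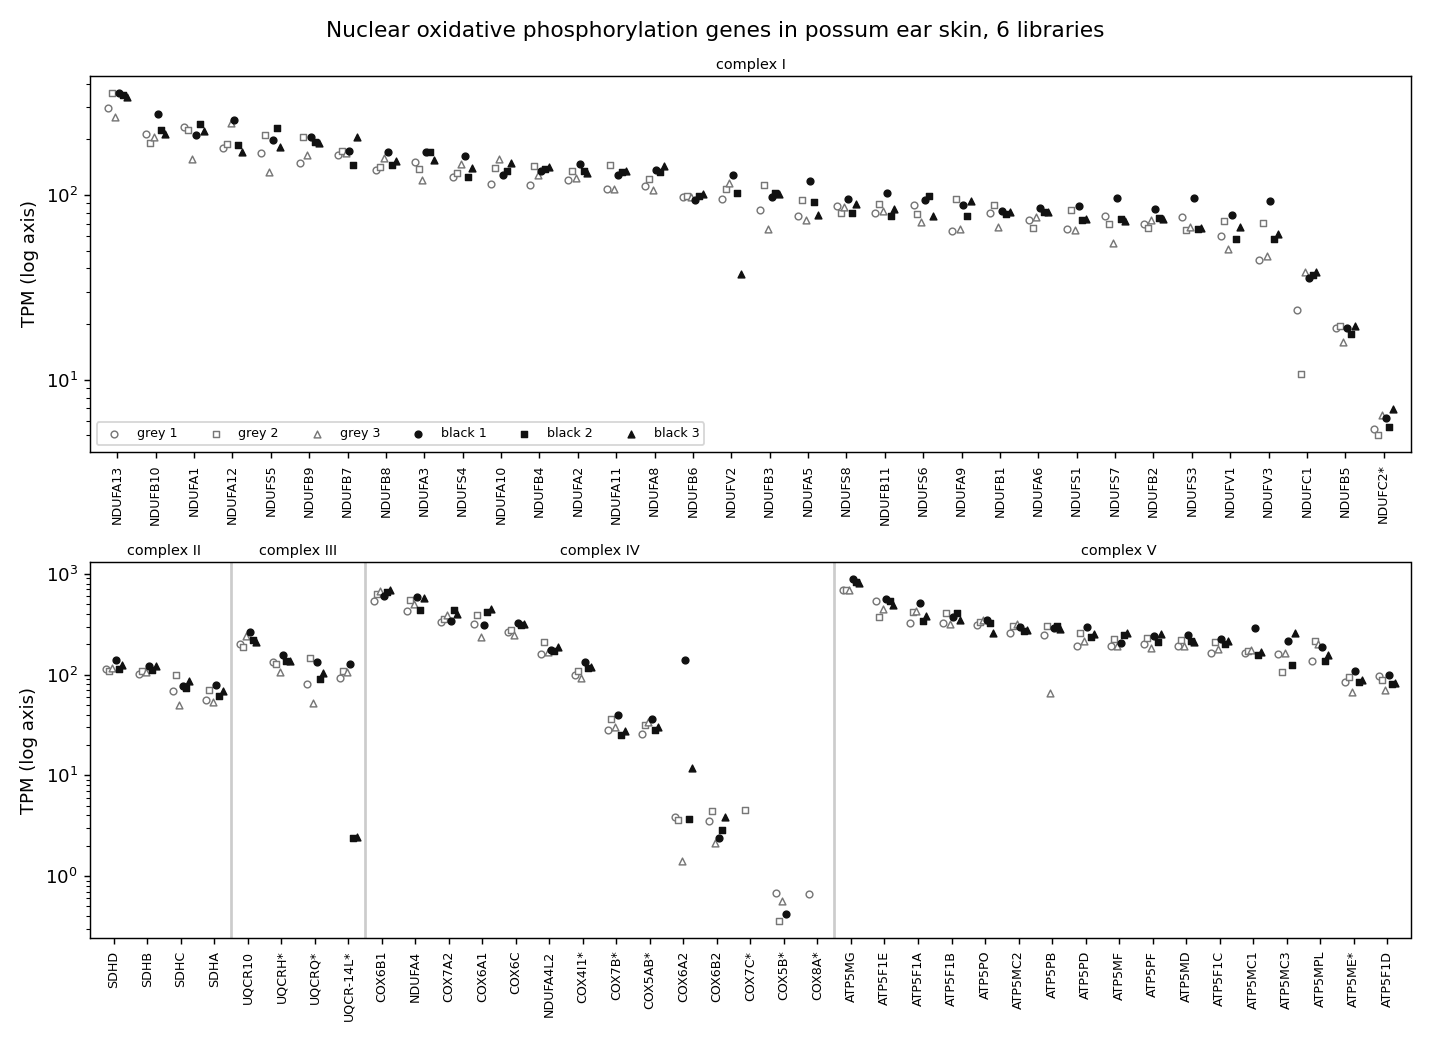
TPM of 73 of the 74 members in each library on a log axis, complex I above and complexes II to V below, ordered by mean within a complex; open symbols are grey and filled symbols black libraries, an asterisk marks members measured at single-exon loci only, and values of 0 are not drawn. Most members vary little between libraries, and COX6A2, UQCR-14L, ATP5PB, NDUFV2 and NDUFC1 have the widest ranges.

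The members varied little from possum to possum. The highest library was under 1.5 times the lowest for 47 of 71 members, compared with 23.8% of all genes tested. Among those averaging 50 TPM or more, this was true of 44 of 64 members and of 40.3% of genes. The median SD within a colour was 0.17 on the log2 scale for the members of that level and 0.26 for all genes of that level. Range and SD are descriptions, with no test.

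In 3 of the members with the widest ranges, ATP5PB, NDUFV2 and NDUFC1, the assembled length of the gene differed between libraries. ATP5PB, subunit b of the peripheral stalk, had 249, 302 and 66.4 TPM in grey and 292, 306 and 286 TPM in black libraries. In grey replicate 3 its main transcript on chromosome 7 was assembled down to 58639723, with a last exon of 4418 nt, against 404 to 452 nt in the other 5 libraries. Coverage of its other exons per aligned gigabase was 162 in that library and 137 to 181 in the others. Over the same exons in all libraries the ratio of highest to lowest fell from 4.60 to 1.34. NDUFV2, an iron-sulfur subunit of complex I, had 94.5, 108 and 116 TPM in grey and 128, 102 and 37.5 TPM in black libraries. The last exon of its main transcript was 3334 nt long in black replicate 3 and 170 to 177 nt in the others, and coverage of the other exons was highest in black replicate 3, at 57.0 per gigabase. Its change of −0.41 ± 0.43 (SE) turned to 0.32 over the same exons. NDUFC1, a small membrane subunit, had 23.8, 10.8 and 38.3 TPM in grey and 35.4, 37.0 and 38.3 TPM in black libraries. The lowest value, of grey replicate 2, went with a last exon of 5142 nt, and coverage of the other exons was 23.0 per gigabase there and 20.9 to 28.3 elsewhere. Over the same exons, most of them last-exon bases, grey replicate 2 was still lowest, and the ratio of highest to lowest fell only from 3.56 to 2.16. For ATP5PB and NDUFV2 the low TPM was thus not shared by the other exons, while for NDUFC1 the answer differed between these measures.

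ATP5MC3 was assembled in different forms. In black replicates 1 and 3 its main transcript had 4 exons, began at 229744843 on the reverse strand of chromosome 2, and reached 195 and 239 TPM. In the other 4 libraries the main transcript had 5 exons, began between 229745117 and 229745250, and reached 65.3 to 102 TPM. The gene total was 160, 105 and 166 TPM in grey and 217, 126 and 261 TPM in black libraries. In COX6A1, the lowest library, grey replicate 3, likewise had the longest last exon of its main transcript, 607 nt against 202 to 296 nt, and coverage of the other exons was 151 per gigabase there and 121 to 154 elsewhere.

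Single-exon loci named after members, which have the form of copies made from processed transcripts, numbered 48 and belonged to 32 members, 21 of which also had a spliced gene. RefSeq lists 25 of them as protein coding and 8 as pseudogenes, and 15 lay outside RefSeq genes. They summed to 971 to 1346 TPM per library. Reads of near-identical copies and spliced genes can be shared between them, so the split between the loci is uncertain. Of the 48, 38 were assembled in all 6 libraries. Among the 35 loci averaging 1 TPM or more, 8 differed more than 3 times between libraries.

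Several copies were much higher in some possums than in others. The locus named UQCR-14L (LOC118857343, chromosome 7, 185248363 to 185248784, forward strand), after a complex III subunit, had 91.9, 109 and 106 TPM in grey and 128, 2.39 and 2.44 TPM in black libraries. Black replicate 1 lay with the grey libraries and the other black libraries were low. The change was −3.17 ± 1.34 (SE; limma, unadjusted p = 0.0505, adjusted p = 1.00). Without black replicate 1 it was −4.92 ± 0.18 (SE; limma, adjusted p = 0.0032), and this was the only gene of all those tested to pass in that fit (0.00672%). A copy of NDUFS5 (LOC118831154, chromosome 1, 539267498 to 539268099) had 23.0, 69.4 and 19.7 TPM in grey and 88.5, 103 and 26.6 TPM in black libraries, falling into a low and a high set that crossed the colours. The spliced NDUFS5 gene had 146, 140 and 113 TPM in grey and 109, 126 and 155 TPM in black libraries.

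In black replicate 3 a copy of NDUFA5 (LOC118839739, chromosome 2, 30585937 to 30586581) had 23.3 TPM, against 0.25 to 1.09 TPM in the other libraries. The spliced NDUFA5 gene had its lowest value in that library, 55.0 TPM against 73.0 to 119 TPM. Of 4 single-exon copies of ATP5MD, 2 were likewise high in that library. That on chromosome 7 (LOC118858560, 242292933 to 242293276) had 24.4 TPM in black replicate 3 and 4.07 to 6.36 TPM elsewhere. That on chromosome 9 (65116073 to 65116186) had 14.5 TPM there and 0.49 to 1.38 TPM elsewhere. A further copy on chromosome 4 was lowest in black replicate 3, at 0.99 TPM against 1.37 to 2.13 TPM, and the remaining one stayed under 0.5 TPM. The spliced ATP5MD gene was lowest in the same library, at 169 TPM against 186 to 239 TPM. In black replicate 1 a copy of NDUFB11 (chromosome 4, 412990183 to 412990519) had 14.3 TPM, against 0 to 0.49 TPM elsewhere. Whether the copies took reads of the spliced genes was not tested. These copies were chosen after their values were seen.

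**Figure D5:**
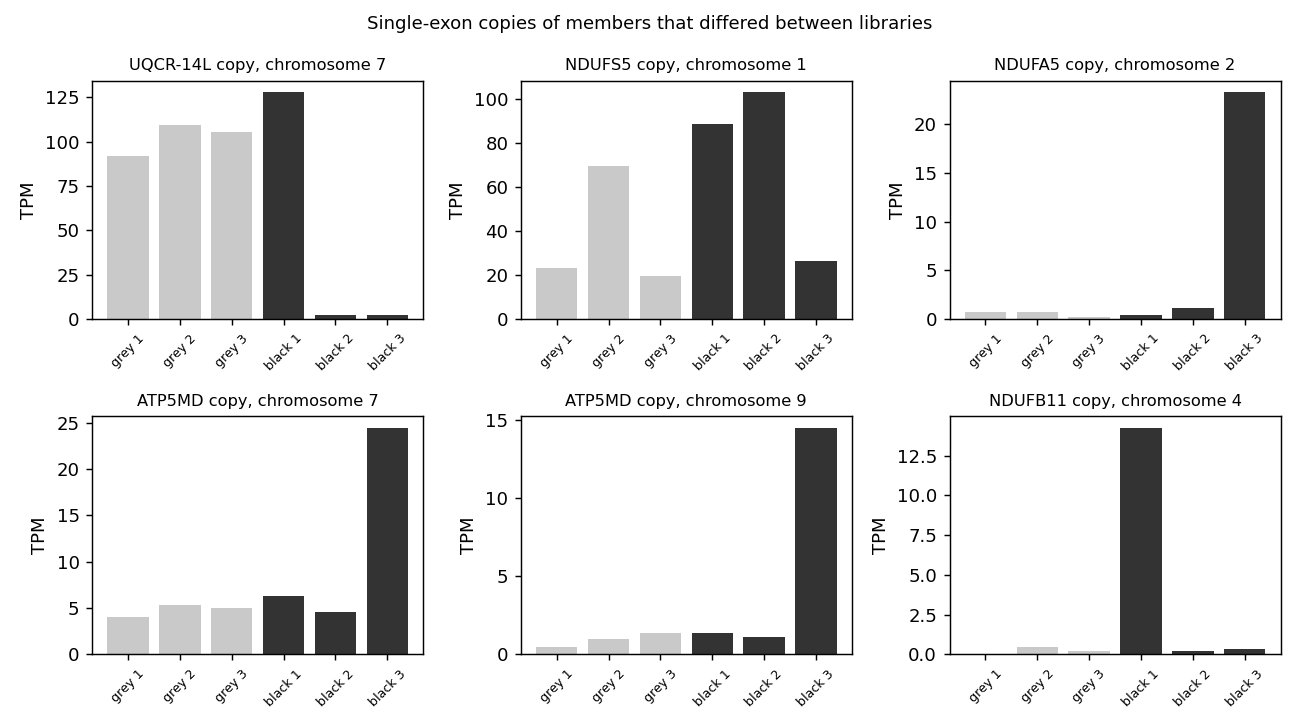
TPM of 6 single-exon copies in each library, grey libraries in light and black libraries in dark bars; vertical scales differ and start at 0. The UQCR-14L locus is near 0 in black replicates 2 and 3, the copies of NDUFA5 and ATP5MD stand out in black replicate 3 and that of NDUFB11 in black replicate 1.

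The mitochondrial genome encodes the remaining subunits, and only part of it was assembled. A longer block, from ND3 to CYTB, was assigned to ND5 and had 3921, 4272 and 3078 TPM in grey and 4957, 2227 and 3835 TPM in black libraries. Black libraries held both the highest and the lowest value. As 1 transcript spans several genes, these are values of a block and not of a subunit, and no single subunit was analysed here. A short block within COX3 had 9741, 8967 and 7413 TPM in grey and 8286, 6550 and 8403 TPM in black libraries. Its mean was 8707 ± 1186 TPM for the grey and 7747 ± 1038 TPM for the black possums (SD over 3 libraries each), and the colours overlapped. Mitochondrial transcripts made up 1.18% to 2.01% of assembled bases.

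Other genes of mitochondrial energy metabolism were compared in the same fit, and 0 of them passed in either direction; 1, PPARA, had an unadjusted p under 0.05. Of 19 tested carriers and accessory proteins, 16 were higher in black skin, with a median log2 change of 0.11. Over all genes tested 56.6% were higher, with a median of 0.04, and of those averaging 50 TPM or more 69.1% were higher. VDAC1, a pore of the outer membrane, had the smallest p (change 0.29 ± 0.18, SE; limma, unadjusted p = 0.147, adjusted p = 1.00). SLC25A6, an ADP/ATP carrier and the highest of the list, had 1226, 1730 and 255 TPM in grey and 1412, 1502 and 1540 TPM in black libraries. In black replicate 1, SLC25A4, the carrier of muscle, reached 393 TPM against 1.58 to 2.39 TPM elsewhere, and CKMT2, the mitochondrial creatine kinase of muscle, reached 48.2 TPM and was listed at 0 elsewhere. Both were named after their values were seen. UCP3, the lowest of the list, was assembled only there, at 1.66 TPM.

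Of 52 assembly factors listed, 28 were found by symbol, and the rest, such as BCS1L and SURF1, were not analysed. Of the 27 tested, 17 were higher in black, with a median of 0.06, against 56.6% and 0.04 over all genes tested. COX14, needed for complex IV assembly, had 99.1, 105 and 63.3 TPM in grey and 135, 114 and 115 TPM in black libraries, without overlap (change 0.47 ± 0.22, SE; limma, unadjusted p = 0.0724, adjusted p = 1.00). SDHAF2, which helps attach the flavin of SDHA, was the highest at 123 to 174 TPM, and COX20 the lowest at 0 to 0.79 TPM. Of 18 tested genes of the tricarboxylic acid cycle and pyruvate oxidation 11 were higher, against 56.6% of all genes tested. Their median was 0.11. They ran from PC, pyruvate carboxylase, at 6.95 to 9.02 TPM, to MDH2, malate dehydrogenase, at 172 to 253 TPM. IDH3B had the smallest p (change 0.31 ± 0.21, SE).

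Of 19 tested regulators of mitochondrial biogenesis 9 were higher, against 56.6% of all genes tested, with a median of −0.002 on the log2 scale. PPARA, a nuclear receptor that controls fatty acid oxidation, had 23.7, 15.7 and 18.4 TPM in grey and 9.72, 12.1 and 8.998 TPM in black libraries. Every black library lay below every grey one, with a change of −0.84 ± 0.22 (SE; limma, unadjusted p = 0.0061, adjusted p = 1.00), which did not pass. NFE2L2, which controls antioxidant genes, was the highest of these at 46.3 to 72.9 TPM. PPARGC1A, the coactivator PGC-1α, was the lowest: 3 grey libraries and black replicate 3 list it at 0, while black replicate 1 had 2.75 TPM and black replicate 2 had 0.25 TPM. Of 20 glycolytic genes 15 were higher, with a median of 0.24, against 56.6% and 0.04 over all genes tested. Against 21.7% of all genes tested, 13 of the 20 had their highest value in black replicate 1. ALDOA, aldolase and the highest of them, had 463, 748 and 802 TPM in grey and 1183, 750 and 511 TPM in black libraries, while ENO2, the lowest, had 3.804 to 16.7 TPM. PKM, pyruvate kinase, had the smallest p (change 0.42 ± 0.20, SE; limma, unadjusted p = 0.0725, adjusted p = 1.00). PGAM2, PFKM and ENO3 reached 99.4, 113 and 401 TPM in black replicate 1. Elsewhere they had 0, 2.17 to 9.56 and 12.0 to 19.7 TPM, and they were named after their values were seen. The median of the glycolytic genes without black replicate 1 is not given here.

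Markers of other cells were set beside the members. Smooth muscle and pericyte markers summed to 496 to 1348 TPM in grey and 632 to 879 TPM in black skin, fibroblast markers to 950 to 3590 and 2287 to 2698 TPM. Of the brown fat markers UCP1 was not found and the other 3 summed to 118 to 267 and 108 to 181 TPM. Adipocyte markers (3 of 5 found) summed to 11.1 to 23.3 and 2.75 to 20.02 TPM, melanocyte markers to 61.8 to 249 and 94.7 to 246 TPM. Macrophage markers summed to 44.8 to 67.7 and 41.4 to 174 TPM, and cartilage markers (2 of 3) to 163 to 345 and 134 to 189 TPM. The colours overlapped for each of these sums, and 0 marker genes passed the test. Their part in the levels of the members was not tested.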

How the data were processed

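RNA-seq of ear punch skin from 6 possums (3 grey, 3 black) was available as assembled transcripts, 1 file per library. Per the labels and the paper, the authors used Trim Galore 0.6.10 for trimming at a Phred score of 20, HISAT2 2.2.1 for alignment to the possum assembly, and StringTie 2.2.0 for the assembly of each library after amplicon contamination had been removed. The values the authors deposited are TPM, FPKM and coverage per transcript, normalized values and not read counts.

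Each of 274079 transcripts was assigned to the RefSeq gene of the same assembly with which it shared most exonic bases on its strand (226369), else to a locus named by the files (1410). Gene models were inferred from assembled transcripts that matched the spans (joint overlap of at least 0.5, or 80% of one inside the other). RefSeq genes without a symbol (884) took the files' name. TPM were summed per gene and 87.9% to 90.7% fell in named genes. Depth was the ratio of coverage to FPKM. Reads were taken as covered bases over the read length of 120 bp, which covers counting only.

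The 14969 genes averaging 1 TPM or more were compared with limma (version 3.58.1, R version 4.3.3, mean-variance trend) on log2(TPM + 1), which understates changes of low genes, with Benjamini-Hochberg adjustment over all of them at 0.05. The fit was tested on simulated data. A p sets the difference between the colours against the spread between possums of the same colour. Tables and figures used Python (version 3.11.15). Members and lists were chosen with earlier results of these data known. Members with tissue forms, extremes of level, change, p and range, no overlap, a value of 0, and complex II were named, and of other lists the extremes of p and level. The alternatives changed the pseudocount, the filter, the scaling or the variance model, or were a replicate block, leaving out libraries, RefSeq genes only, multi-exon transcripts and values not divided by length. Coverage over the same exons in all libraries (exonic bases assembled in at least 3), and all alternatives for the counts by direction, were added after seeing the data. The values of 1 member are counted in the sums and counts but not reported here.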

Additional observations from a re-analysis of the deposited data

How the results depend on the processing

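Of 18 alternatives, 17 left 0 members past the threshold. Leaving out 1 library at a time gave 0 to 1, the 1 being UQCR-14L without black replicate 1 (log2 change −4.92, adjusted p = 0.0032 in limma). In that fit 2 libraries stand for black skin. The median log2 change of members stayed within 0.13 to 0.20 when 1 library was left out and was 0.09 with quantile normalization, and called genes of the other lists stayed at 0. The change of NDUFV2 turned from −0.41 to 0.115 without black replicate 3 (−0.76 to 0.115 over libraries left out), to 0.31 without division by length and to 0.32 over the same exons. The summed difference moved from 1349 to 428.8 when values were not divided by length but scaled to the same total as TPM. Those values are shares of bases, in which short transcripts such as those of the members weigh less, so these differences are not on the same scale. How much of the drop this makes was not tested. With such values 61 of 70 members were higher in black, with a median log2 change of 0.11 against 0.02 over all genes. The count of members higher in black without overlap moved from 10 to between 13 and 32 when 1 library was left out: 32 without grey replicate 2, 16 without grey replicate 3 and 18 without black replicate 2. Fewer libraries make a lack of overlap easier. It was met by 10.3% of genes without grey replicate 2, 9.62% without grey replicate 3 and 10.1% without black replicate 2, against 3.87% with all libraries. The change of COX6A2 ran from 1.04 without black replicate 1 to 3.49. Centring on library medians left 60 of 71 members higher in black.

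Replicate numbers are shared by the colours, but deviations of same-numbered libraries correlated by −0.03, 0.02 and −0.05, so the numbers were not taken to pair the possums. With a replicate block 0 members passed and their median change was 0.15.

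Comparisons rest on 3 possums a colour at 4.17 to 10.2 aligned gigabases. The 11 members seen only at single-exon loci, and genes not found by symbol, leave complexes III and IV described in part.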
